A study of Mus musculus with 4 samples.

Results

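The 10 genes described here encode secreted acute phase proteins: the serum amyloids Saa1, Saa2, Saa3 and Saa4, the orosomucoids Orm1 and Orm2, haptoglobin (Hp), hemopexin (Hpx), lipocalin 2 (Lcn2) and C-reactive protein (Crp). They were taken by symbol, though with earlier results of these data known, and are 10 of the 21878 genes in the deposited count tables. All 10 had counts in every library and passed the filter on low counts, as did 13428 genes in all. In inflammation, interleukin-6 acting through STAT3, and interleukin-1 and TNF acting through NF-kappa-B and C/EBP factors, raise hepatocyte output of most of these proteins. The same signals lower that of carriers such as albumin, which are then called negative acute phase proteins. Saa3 and Lcn2 are also made outside hepatocytes, in macrophages, in epithelia and, for Lcn2, in neutrophils.

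RNA came from mouse liver cells of the C57BL/6 strain, collected on magnetic columns by the surface protein CD24, which progenitor-like liver cells, B cells and neutrophils carry. The CCL4 group (2 libraries) had been injected with carbon tetrachloride, which injures hepatocytes around the central vein, diluted in olive oil, with a dose of 2 ml/kg given 2 times per week over 6 weeks. The HACY group (2 libraries) had been given a mixture of Y-27632, which inhibits protein kinases, A-83-01, which inhibits type I receptors of TGF-beta, and CHIR99021, which inhibits GSK3, in 3 injections per week over 6 weeks. Mice of both groups were 8 weeks old at injection by the treatment text and 6 to 8 weeks by the age label, neither group was untreated, and the labels leave unclear whether HACY mice also received carbon tetrachloride. No label ties the replicates to separate animals, so p-values measure the spread between these libraries, which may be technical. In bulk RNA, fewer cells of a type and less RNA per cell cannot be told apart.

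Library totals ran from 18467299 to 19314219 counts. The cells are labelled as hepatocytes, and hepatocyte products were abundant: albumin (Alb) stood at 24005 and 30358 CPM (counts scaled to library size with TMM factors) in HACY replicates 1 and 2, and at 6971 and 5497 CPM in CCL4 replicates 1 and 2. Markers of other cells were also present. The summed level of 14 macrophage markers was 4140 and 2945 CPM in HACY against 1168 and 1594 CPM in CCL4. The summed level of the 14 neutrophil markers that passed the filter, of 18 listed, was 66.7 to 76.2 CPM in 3 libraries and 388 CPM in CCL4 replicate 2, which therefore stands apart. By edgeR's quasi-likelihood test with an adjusted p under 0.05, 11.7% of tested genes were called, 1100 of them higher in HACY and 476 lower. Scaling by library size alone gave 856 higher and 1355 lower, and moved the median log2 fold change of all tested genes from -0.01 to -0.18.

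Promoter sequence is printed first for the serum amyloids, neighbouring genes that did not all pass the test below. It is also printed for Orm2, on another chromosome, which passed. Mouse Saa1, Saa2, Saa3 and Saa4 lie together on chromosome 7 (GRCm38, the assembly also called mm10). Of the 10 genes, 8 had an entry in the RefSeq promoter table (GRCm38.p6), and Orm1 and Hp had none. Each stretch below runs 5′ to 3′ on the strand of its gene and ends where the annotated transcript begins. Capitals mark matches on either strand to TTGCNNAA, a core of C/EBP sites, or to the TATA box TATAAA.
Saa1: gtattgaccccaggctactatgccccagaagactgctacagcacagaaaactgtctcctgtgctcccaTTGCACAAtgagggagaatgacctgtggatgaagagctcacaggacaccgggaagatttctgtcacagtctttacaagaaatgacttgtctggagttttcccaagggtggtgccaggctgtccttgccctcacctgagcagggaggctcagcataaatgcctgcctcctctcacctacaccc
Saa2: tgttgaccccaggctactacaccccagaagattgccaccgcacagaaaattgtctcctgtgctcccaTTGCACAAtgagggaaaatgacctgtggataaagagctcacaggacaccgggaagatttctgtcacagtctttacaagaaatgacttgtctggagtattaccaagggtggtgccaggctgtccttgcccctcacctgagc
Saa3: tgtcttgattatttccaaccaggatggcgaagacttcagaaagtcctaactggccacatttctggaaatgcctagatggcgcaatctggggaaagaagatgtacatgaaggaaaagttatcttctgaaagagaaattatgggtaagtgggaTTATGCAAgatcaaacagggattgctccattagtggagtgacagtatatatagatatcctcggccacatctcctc
Saa4: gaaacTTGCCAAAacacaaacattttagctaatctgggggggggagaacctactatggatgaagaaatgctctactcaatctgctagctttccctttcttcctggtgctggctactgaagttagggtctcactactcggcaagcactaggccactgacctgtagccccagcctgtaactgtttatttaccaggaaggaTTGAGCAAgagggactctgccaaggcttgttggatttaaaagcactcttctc
Orm2: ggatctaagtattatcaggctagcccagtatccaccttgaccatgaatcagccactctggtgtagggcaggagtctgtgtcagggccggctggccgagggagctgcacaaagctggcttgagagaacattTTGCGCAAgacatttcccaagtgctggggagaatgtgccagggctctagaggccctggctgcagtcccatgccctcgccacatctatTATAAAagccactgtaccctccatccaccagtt
The Saa1 stretch is chr7:46742981-46743230 (minus strand) and the Saa2 stretch chr7:46751583-46751789 (plus strand). The Saa3 stretch is chr7:46715701-46715926 and the Saa4 stretch chr7:46732604-46732853, both on the minus strand. The Orm2 stretch is chr4:63362199-63362448 (plus strand). Over the 250 bases before their RefSeq starts Saa1 and Saa2 were near copies, identical at 95.6% of 249 aligned bases, and both held TTGCACAA, starting at -182 and -183 from the RefSeq start (base -1 is the last before it). Saa3 held its match, TTATGCAA on the given strand, at -99. Saa4 had 2 matches, at -245 and -52.

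Over the 250 bases before the start, 9.55% of 27025 mouse promoters hold TTGCNNAA, and 13% hold TATAAA. A C/EBP core was found in 7 of the 8 promoters with an entry (Saa1, Saa2, Saa3, Saa4, Orm2, Hpx and Lcn2), and not in that of Crp. TATAAA was found in Orm2 and Crp, at -33 and -31. The NF-kappa-B core GGGANTTTC (0.977% of all promoters), the STAT3 core TTCNNNGAA (7.18%) and the HNF1 core GTTAATNAT (0.781%) had no match in any of the 8 windows on either strand. The glucocorticoid receptor letters ACANNNTGT (5.91%) were found in Lcn2. These are matches of letters in short windows and were not tested for function. Saa2, Saa4 and Hpx, which were not called in the test below, held the C/EBP core, as did the called genes Saa1, Saa3, Orm2 and Lcn2, and Crp, which was called, did not.

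Under TMM scaling over all genes, 7 of the 10 acute phase genes were higher in HACY and 0 were lower at an edgeR adjusted p below 0.05 (Benjamini-Hochberg over 13428 genes), and 7 of the 10 log2 fold changes reversed when libraries were scaled to hepatocyte genes instead. Among all tested genes 8.19% were called higher and 3.54% lower. The called genes were Saa1, Saa3, Orm1, Orm2, Hp, Lcn2 and Crp, with changes from 1.46-fold for Saa1 to 3.38-fold for Hp. Saa2, Saa4 and Hpx were not called. At an unadjusted edgeR p under 0.05 there were 8 higher and 0 lower, as there were by DESeq2. Both HACY libraries lay above both CCL4 libraries for 8 of the 10, against 30.7% of all tested genes, and for 0 of the 10 did both lie below, against 30.1%. The median log2 fold change of the 10 genes was 1.02, beside -0.01 over all tested genes.

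**Figure D1:**
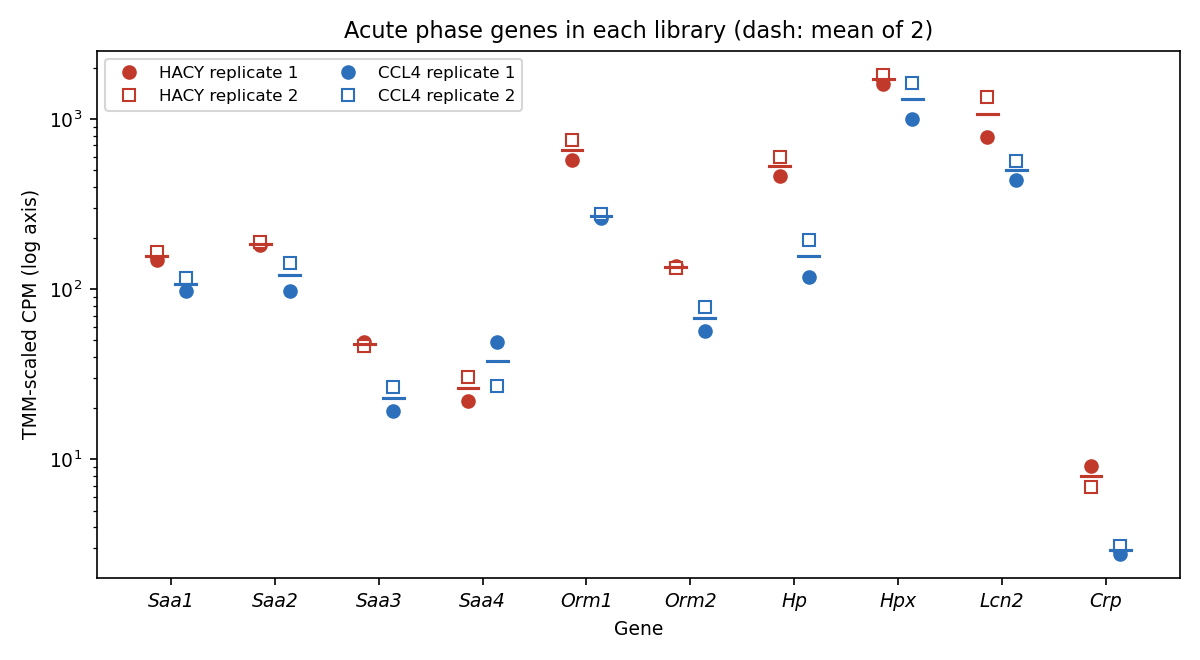
Level of each acute phase gene in each of the 4 libraries, in TMM-scaled CPM on a log axis, with points for the HACY and the CCL4 libraries. The groups overlap for Saa4 and Hpx, and the 2 HACY points lie above both CCL4 points for the other 8 genes on this scaling; scaled to hepatocyte genes, 7 of the 10 changes reverse.

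The serum amyloids are small apolipoproteins of high-density lipoprotein, and Saa1 and Saa2 are the forms that the liver releases in acute inflammation. Saa1 (chr7:46740497-46742980, minus strand) stood at 149 and 165 CPM in HACY and at 97.8 and 117 CPM in CCL4. The groups did not overlap and Saa1 was 1.46-fold higher in HACY (log2 0.55, SE 0.14, edgeR adjusted p = 0.0466). This was the call nearest the threshold. It was lost when HACY replicate 1 (0.155), HACY replicate 2 (0.289) or, among CCL4 libraries, replicate 1 (0.0799) was removed. It was also lost under library size scaling (0.0939), upper-quartile scaling (0.0706), a stricter filter (0.0533) and limma on log2(FPKM + 1) (0.0749).

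Saa2 (chr7:46751790-46754313, plus strand) lies next to Saa1 in the opposite orientation, 8810 bases away. It stood at 181 and 188 CPM in HACY and at 97.7 and 143 CPM in CCL4. The HACY libraries were close to each other and both above CCL4, but the difference was not called (log2 0.61, SE 0.18, edgeR adjusted p = 0.0746). The CCL4 libraries differed from each other by 0.55 on the log2 scale, with replicate 2 the higher. Without that replicate Saa2 was called at a log2 fold change of 0.92 (edgeR adjusted p = 0.00605), and DESeq2 called it on all 4 libraries (0.0209), as did edgeR with no filter on low counts (0.0459). Saa1 and Saa2 transcripts are identical at 94.4% of aligned bases and share 13.2% of their 50-base windows, and RefSeq lists each symbol as a synonym of the other. Which of the pair a count belongs to is therefore uncertain.

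Saa3 is the serum amyloid of macrophages, adipose tissue and epithelia, and it is induced in liver too. Saa3 (chr7:46711998-46715700, minus strand) stood at 48.6 and 46.4 CPM in HACY and at 19.2 and 26.6 CPM in CCL4. It was 2.08-fold higher in HACY (log2 1.05, SE 0.20, edgeR adjusted p = 0.0181), and both HACY libraries exceeded both CCL4 libraries. Without HACY replicate 1 its call was lost (0.0605). Of 14 macrophage markers, 11 were also higher in HACY and 0 lower, with the summed levels given above, and their part in the Saa3 difference was not tested.

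Saa4 is the constitutive serum amyloid, which changes little in the acute phase. Saa4 (chr7:46727998-46732603, minus strand) stood at 22 and 30.6 CPM in HACY and at 49.2 and 26.9 CPM in CCL4. The groups overlapped, with CCL4 replicate 1 alone standing high, and the difference was not called (log2 -0.53, SE 0.30, edgeR adjusted p = 0.288). The value rested on that library: without CCL4 replicate 1 the log2 fold change was -0.030, and without CCL4 replicate 2 it was -0.90 and was called lower (edgeR adjusted p = 0.0295). Of the 10 genes, Saa4 alone had a negative log2 fold change under TMM scaling.

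On the length-scaled FPKM of the authors, which allows levels of different genes to be compared, Saa1 and Saa2 were the highest of the family in every library. Saa1 stood at 118 and 126 FPKM in HACY and 82.8 and 97.3 FPKM in CCL4. Saa2 stood at 136 and 136 FPKM in HACY and 81.6 and 124 FPKM in CCL4. Saa3 followed with 91.3 and 82.0 FPKM in HACY and 35.5 and 48.3 FPKM in CCL4, and Saa4 came last with 2.60 to 6.25 FPKM in the 4 libraries. The order of Saa1 and Saa2 did not hold in every library, whereas Saa3 was below both and Saa4 below all 3.

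Saa3 made up 26.2% and 23.6% of the summed Saa FPKM in HACY, and 17.2% and 17.6% in CCL4. Its share was 24.9% ± 1.85 (SD, n = 2) against 17.4% ± 0.298 (SD, n = 2), a difference of 7.51 percentage points. The 2 groups did not overlap, and the exact two-sided permutation test gave p = 0.333, the smallest p that 2 against 2 libraries allow. The size depends on the lengths behind the FPKM. The length implied by the ratio of CPM to FPKM was 0.551 kb for Saa3 against 0.555 kb for its annotated transcript, but 1.24 against 0.609 kb for Saa1, 1.28 against 0.606 kb for Saa2 and 8.09 against 2.094 kb for Saa4. From counts alone the difference in the Saa3 share was 3.59 points, and from counts per kilobase of the annotated transcript, an alternative chosen after seeing the data, 3.54 points.

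**Figure D2:**
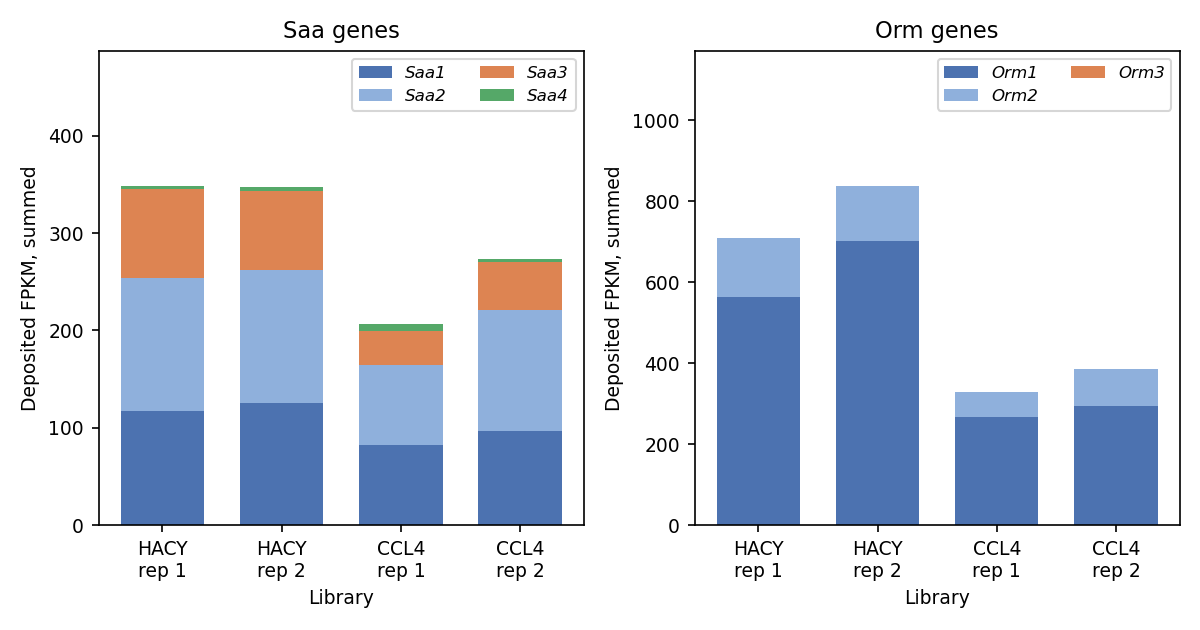
Deposited FPKM of the serum amyloid genes and of the orosomucoid genes, stacked by gene, with one bar for each library. Saa3 takes 26.2% and 23.6% of the Saa bar in the HACY libraries and 17.2% and 17.6% in the CCL4 libraries, while Orm1 takes 76.4% to 83.9% of the Orm bar in all 4.

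The orosomucoids, or alpha-1-acid glycoproteins, are plasma lipocalins that bind basic drugs and lipids. Orm1 (chr4:63344560-63348163, plus strand) stood at 571 and 753 CPM in HACY and at 263 and 276 CPM in CCL4. Orm1 was 2.46-fold higher in HACY (log2 1.30, SE 0.16, edgeR adjusted p = 0.00386), the smallest adjusted p among the 10 genes, and both HACY libraries lay above both CCL4 libraries. Orm2 (chr4:63362449-63365878, plus strand) stood at 136 and 133 CPM in HACY and at 56.9 and 79.1 CPM in CCL4. The HACY libraries agreed closely and Orm2 was 1.98-fold higher there (log2 0.99, SE 0.17, edgeR adjusted p = 0.0146). Both calls held without each library in turn and under every alternative except scaling to hepatocyte genes, where the log2 fold changes were -0.11 for Orm1 and -0.39 for Orm2.

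The third gene of the cluster, Orm3 (chr4:63356162-63359511), lies between Orm1 and Orm2 and is not among the 10. Its counts were 90 and 90 in HACY and 136 and 69 in CCL4, and it was not called (log2 -0.04, SE 0.39, edgeR adjusted p = 0.964). The promoter windows of Orm2 and Orm3 were identical at 89.0% of aligned bases, and both held a C/EBP core and a TATAAA. Orm1 and Orm2 transcripts are identical at 91.0% of aligned bases and share 20.4% of their 50-base windows, so the split of reads between them is uncertain. Orm1 made up 79.4% and 83.9% of the summed Orm FPKM in HACY, and 80.9% and 76.4% in CCL4. These shares overlapped, with a difference of 2.97 percentage points (exact two-sided permutation p = 0.667).

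Haptoglobin binds haemoglobin released from red cells, and the complex is taken up through Cd163, while hemopexin binds free haem. Hp (chr8:109575128-109579172, minus strand) stood at 462 and 599 CPM in HACY and at 119 and 196 CPM in CCL4. Hp showed the largest change of the 10 genes, 3.38-fold higher in HACY (log2 1.76, SE 0.25, edgeR adjusted p = 0.00736), with no overlap. Its call held without each library in turn, with log2 fold changes from 1.44 to 2.16. Scaled to hepatocyte genes, its log2 fold change was 0.35.

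Hpx (chr7:105591613-105600137, minus strand) was the most abundant of the 10 by CPM, with 1610 and 1823 CPM in HACY and 1003 and 1638 CPM in CCL4. The groups overlapped, because CCL4 replicate 2 stood just above HACY replicate 1, and Hpx was not called (log2 0.38, SE 0.22, edgeR adjusted p = 0.304). Its log2 fold change was 0.07 when CCL4 replicate 1 was left out, and 0.78 and called when CCL4 replicate 2 was (edgeR adjusted p = 0.0198). The Hpx value thus depended on which CCL4 library was used.

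Lipocalin 2 binds the iron-carrying siderophores of bacteria and is stored in neutrophil granules as well as made by injured hepatocytes. Lcn2 (chr2:32384633-32388252, minus strand) stood at 787 and 1347 CPM in HACY and at 435 and 570 CPM in CCL4. It was 2.12-fold higher in HACY (log2 1.09, SE 0.26, edgeR adjusted p = 0.0396) without overlap, although the HACY libraries differed from each other by 0.77 on the log2 scale. The call was lost without HACY replicate 2, the highest library (log2 0.65, adjusted p = 0.108), and without CCL4 replicate 1 (log2 0.91, 0.121). It was also lost under upper-quartile scaling (0.0529), with no filter (0.0644) and by limma on log2(FPKM + 1) (0.0646).

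Of 14 tested neutrophil markers, 3 had a positive log2 fold change, and the median was -0.79. DESeq2, which tested 18 of the markers, called 3 lower and 0 higher in HACY. By edgeR adjusted p, 2 of the 14 were lower in HACY (Cxcr2 and Mmp9) and 0 higher, and limma-voom called 0. Both calls were also lost when either HACY library was left out. The marker S100a9 stood at 3.60 and 6.75 CPM in HACY and at 11.8 CPM in CCL4 replicate 1. Its level was 112 CPM in CCL4 replicate 2, the library in which Lcn2 was 570 CPM. Without CCL4 replicate 2 the neutrophil list had a median log2 fold change of 0.54, and without CCL4 replicate 1 it had -2.34. The log2 fold change of Lcn2 was 1.29 in the former fit and 0.91 in the latter. The part of neutrophils in the Lcn2 difference was not tested.

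C-reactive protein is a pentraxin that marks inflammation in people and responds weakly in mice. Crp (chr1:172698055-172833031, plus strand) was the lowest of the 10 in CPM, with 9.18 and 6.87 CPM in HACY and 2.78 and 3.11 CPM in CCL4. It was 2.72-fold higher in HACY (log2 1.44, SE 0.31, edgeR adjusted p = 0.0276) without overlap. The call was lost when HACY replicate 1 (0.232), HACY replicate 2 (0.0597) or, among CCL4 libraries, replicate 1 (0.0545) was removed, and with the replicate number as a block (0.0527). The Crp gene model overlaps a processed pseudogene, Gm38051, so some of its counts are uncertain. The related pentraxin Apcs, serum amyloid P, was higher in HACY, with 41.1 and 37.9 CPM against 3.29 and 5.57 CPM (log2 3.15, SE 0.27, edgeR adjusted p = 0.00163).

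Leaving out 1 library left that group with a single sample, which was assumed to vary like the other group. The number of the 10 genes called higher was 4 when either HACY library was left out, 4 without CCL4 replicate 1, and rose to 9 without the other CCL4 library, replicate 2. The calls of Orm1, Orm2 and Hp held in all 4 of these fits. Saa1, Saa3, Lcn2 and Crp each lost theirs in at least 1. The log2 fold change of Saa3 ran from 0.84 to 1.31, that of Lcn2 from 0.65 to 1.42 and that of Crp from 1.21 to 1.64, so every one of them stayed above 0.

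**Figure D3:**
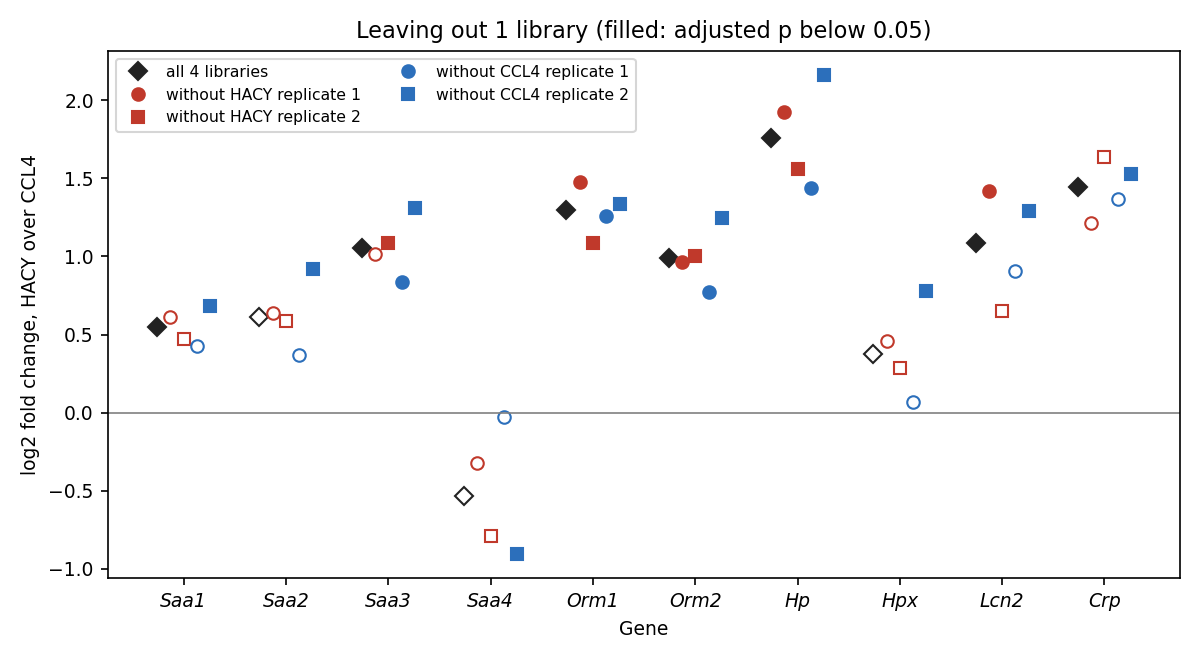
Log2 fold change (HACY over CCL4, TMM scaling) of each of the 10 genes with all 4 libraries and with each library left out. The values of Orm1, Orm2 and Hp stay above 0.77 throughout, those of Hpx reach down to 0.07, and Saa4 runs from -0.90 to -0.030; scaled to hepatocyte genes, all but Saa4, Hp and Crp change sign.

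Most hepatocyte reference genes were higher in HACY. Of 18 hepatocyte reference genes, none of them among the 10, 15 were higher and 0 lower under TMM scaling, with a median log2 fold change of 1.46, above the 1.02 of the acute phase genes. Alb itself rose by 2.12 on the log2 scale (SE 0.19, edgeR adjusted p = 0.00173). When libraries were scaled so that the hepatocyte reference genes set the level, the median of all tested genes shifted from -0.01 to -1.39, and 87% of all tested genes were called lower. Such p-values treat the scaling as known and are too small, so the calls are given only for completeness. Of the 10 acute phase genes, 0 were then called higher and 4 lower (Saa1, Saa2, Saa4 and Hpx).

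**Figure D4:**
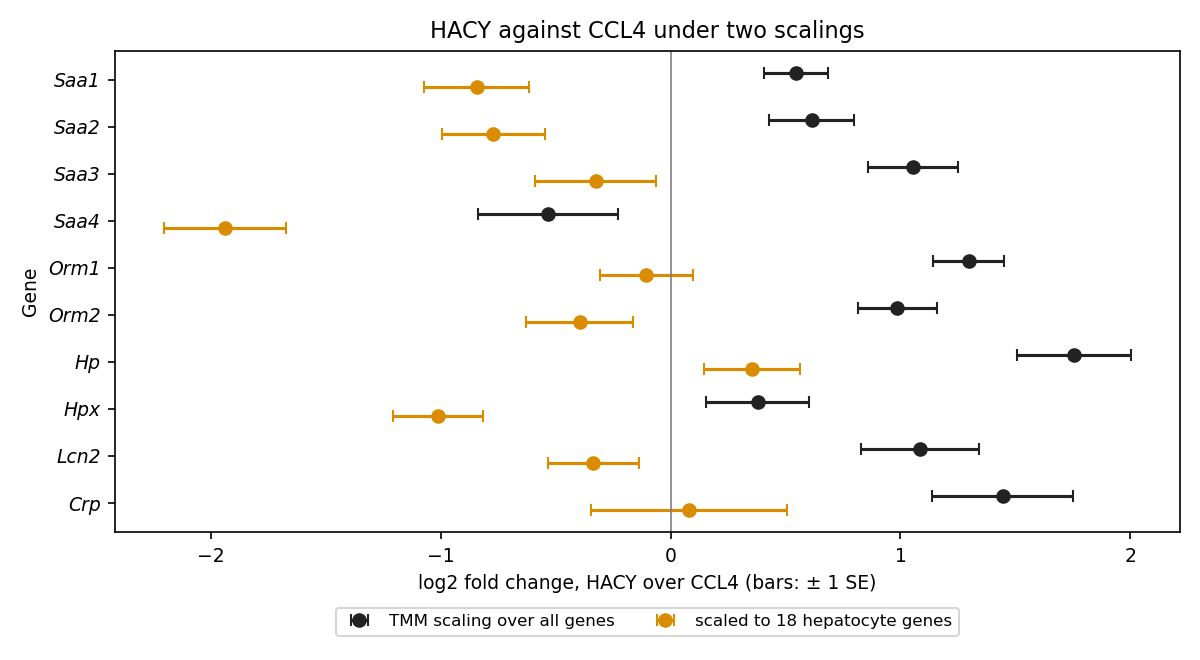
Log2 fold change, HACY over CCL4, of each of the 10 genes under TMM scaling over all genes and under scaling to 18 hepatocyte genes, with bars of 1 SE. Moving from the former to the latter shifts Orm1 from 1.30 to -0.11 and Saa3 from 1.05 to -0.33, while Hp and Crp stay above 0 and Saa4 stays below.

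On the hepatocyte scaling the log2 fold changes were -0.84 for Saa1, -0.77 for Saa2, -0.33 for Saa3 and -1.94 for Saa4. Orm1, at -0.11, and Crp, at 0.08, lay within 1 SE of 0. Hpx stood at -1.01, Orm2 at -0.39 and Lcn2 at -0.34. This scaling changes only a factor per library, so all log2 fold changes move by nearly the same amount. The order of the 10 genes, with Hp highest and Saa4 lowest, was therefore largely fixed in advance and is no separate result.

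The ratio to Alb within each library needs no scaling between libraries. Relative to Alb, 9 of the 10 acute phase genes were lower in both HACY libraries than in both CCL4 libraries, but so were 95.4% of all tested genes. The median difference of the 10 genes was -1.10 on the log2 scale, beside -2.13 over all tested genes. Saa4 had the lowest value, -2.61, followed by Hpx at -1.71 and Saa1 at -1.57. Orm1 stood at -0.84 and Crp at -0.69. Each value is close to the TMM log2 fold change of the gene less that of Alb (2.12). The order of the 10 genes thus largely repeats that under TMM scaling and is no separate result. For Hp the log2 ratio of counts to Alb was -5.70 and -5.66 in HACY and -5.88 and -4.81 in CCL4, which overlap (difference -0.34, exact two-sided permutation p = 1). For the other 9 genes the exact two-sided permutation p was 0.333 (0.370 adjusted over the 10 ratios), the smallest that the design allows.

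Summed over the 10 genes, acute phase transcripts took 0.380% and 0.473% of all counts in HACY, and 0.230% and 0.323% in CCL4. The means were 0.426% ± 0.0653 (SD, n = 2) and 0.276% ± 0.0662 (SD, n = 2), and the groups did not overlap (difference 0.15 percentage points, exact two-sided permutation p = 0.333, the smallest possible). Hpx, which was not called, had the most counts of the 10 in every library, followed by Lcn2, so the sum weighs these most. The summed level of the 18 hepatocyte reference genes was 32320 and 41140 CPM in HACY and 10906 and 9570 CPM in CCL4.

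Other secreted acute phase proteins were compared as lists of known members. Of 24 tested positive acute phase genes outside the 10, 20 were higher in HACY and 0 lower (median log2 fold change 1.37; -0.03 when scaled to hepatocyte genes). The fibrinogen chains led by p: Fga at 438 and 414 CPM against 72.5 and 79.5 CPM (log2 2.49), Fgb (2.11) and Fgg (2.02), with the inter-alpha-trypsin inhibitor chain Itih4 (1.61). Their edgeR adjusted p ran from 0.000908 to 0.000952. Of 14 negative acute phase genes, 9 were also higher and 0 lower (median 1.62, and 0.21 when scaled to hepatocyte genes). The higher genes included the corticosteroid carrier Serpina6 (4.06), the carrier protein fetuin-A, Ahsg (2.27), and the lipoprotein component Apoa1 (1.27). Some of the 14, Alb, Ahsg and Apoa1 among them, are also reference genes of that scaling, so the scaled median was partly fixed by construction. Most positive and most negative acute phase genes were thus higher in the same libraries under TMM scaling.

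**Figure D5:**
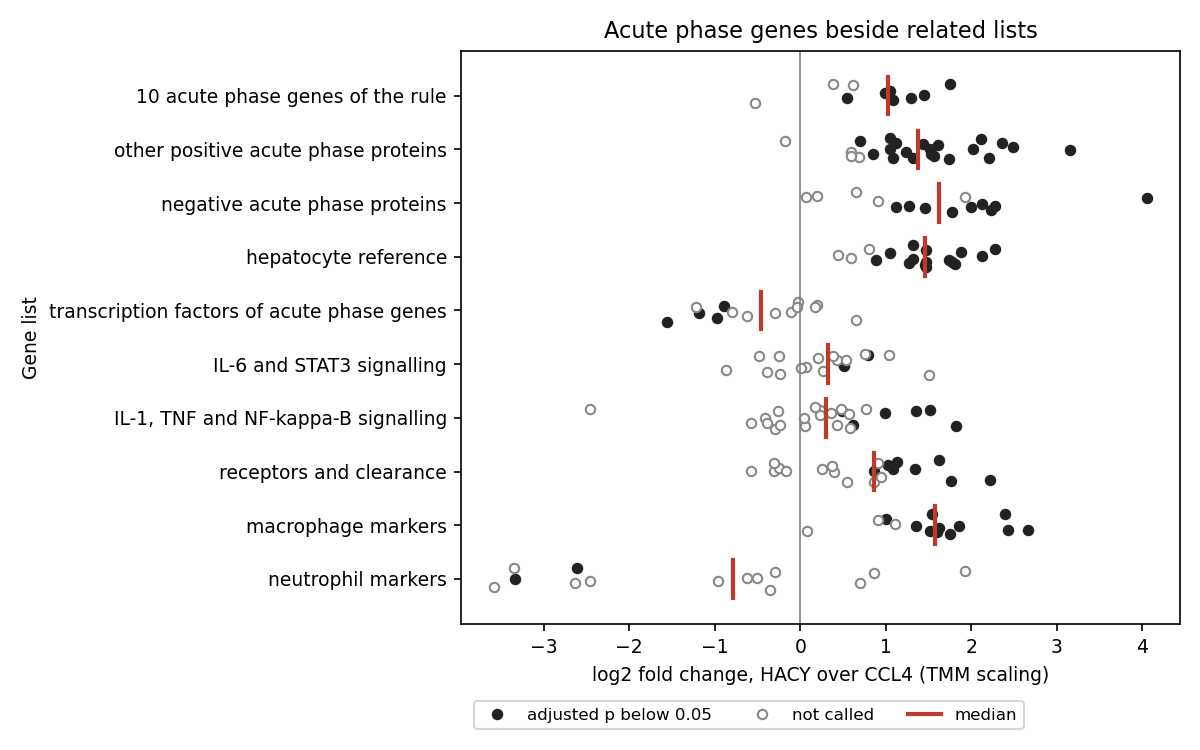
Log2 fold change, HACY over CCL4 under TMM scaling, of each tested gene of the 10 acute phase genes and of 9 other gene lists, with filled points for an edgeR adjusted p below 0.05 and a line at each median. The medians of the positive (1.37) and negative (1.62) acute phase proteins and the hepatocyte reference (1.46) lie above that of the 10 genes (1.02). Scaled to hepatocyte genes they are -0.03, 0.21, 0.06 and -0.37. The reference sets that scaling and shares genes with the negative list, so 0.06 is fixed by it and 0.21 partly so.

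Signals upstream of the acute phase were read from lists of their genes, beside 8.19% called higher among all tested genes. Of 18 genes of IL-6 and STAT3 signalling, 3 were higher and 0 lower (median 0.32; -1.07 when scaled to hepatocyte genes): the receptor chain Il10rb (log2 0.79), the kinase Jak2 (0.51) and the cytokine Lif (0.49). By library size alone Jak2 (0.108) and Lif (0.113) lost their calls, and without HACY replicate 1 Il10rb did (0.137). None of the 18 was called when HACY replicate 1 was left out, 2 when HACY replicate 2 was, and 8 when CCL4 replicate 2 was. Without CCL4 replicate 1 there were 3 higher and 1 lower. Il6 itself stood at 5.57 and 5.11 CPM in HACY and at 1.92 and 3.25 CPM in CCL4 and was not called (log2 1.04, SE 0.37, edgeR adjusted p = 0.110). Stat3 (log2 0.38, edgeR adjusted p = 0.0966) and its feedback target Socs3 (log2 -0.25, edgeR adjusted p = 0.511) were not called either. Il6, Stat3 and Socs3 were singled out after their values were seen.

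Of 24 genes of IL-1, TNF and NF-kappa-B signalling, 6 were higher and 0 lower (median 0.30; -1.09 when scaled to hepatocyte genes). They include the cytokine Il1a, at 72.7 and 50.6 CPM in HACY against 19.0 and 15.8 CPM in CCL4 (log2 1.82, SE 0.22, edgeR adjusted p = 0.00384), and the receptor antagonist Il1rn (log2 1.51, edgeR adjusted p = 0.00446). The NF-kappa-B cofactor Nfkbiz (log2 0.98, edgeR adjusted p = 0.0112) and Tnf (log2 1.35, edgeR adjusted p = 0.0226) lost their calls without HACY replicate 1 (0.0597 and 0.191), and Tnf also without CCL4 replicate 1 (0.0504). At an unadjusted edgeR p under 0.05 there were 10 higher and 3 lower. The adjusted higher calls numbered 2 and 4 when HACY replicates 1 and 2 were left out in turn, and 3 and 7 when CCL4 replicates 1 and 2 were, the last of these fits with 2 lower calls and that without CCL4 replicate 1 with 1. DESeq2 also called 1 lower.

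Of 14 tested transcription factors that bind acute phase promoters, 4 were lower in HACY and 0 higher, beside 3.54% called lower among all tested genes. The other 10 were not called, and the median was -0.46 (-1.84 when scaled to hepatocyte genes). At an unadjusted edgeR p under 0.05 there were 7 lower and 1 higher. Cebpa, the main C/EBP factor of resting hepatocytes, stood at 38.9 and 32.5 CPM in HACY and at 66.5 and 66.3 CPM in CCL4 (log2 -0.90, SE 0.15, edgeR adjusted p = 0.0130). The forkhead factors Foxa2 (log2 -0.98, edgeR adjusted p = 0.0185) and Foxa3 (log2 -1.18, edgeR adjusted p = 0.0194) were lower too, but not without HACY replicate 1 (0.113 and 0.134), and Cebpa was not called without HACY replicate 2 (0.100). Cebpb, the C/EBP factor induced in the acute phase, stood at 45.0 and 37.9 CPM in HACY, at 69.3 CPM in CCL4 replicate 1 and at 175.9 CPM in CCL4 replicate 2 (log2 -1.56, SE 0.39, edgeR adjusted p = 0.0449). The Cebpb call was lost by DESeq2 (0.0752) and when either HACY library was left out (0.415 and 0.440). This list had 1 lower call when HACY replicate 1 was left out, 2 when HACY replicate 2 was, and 6 when CCL4 replicate 2 was.

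Receptors and clearance proteins of the secreted products were also present in the sorted cells. Of 20 tested, 8 were higher in HACY and 0 lower (median 0.86; -0.52 when scaled to hepatocyte genes). The higher calls fell to 5 without HACY replicate 1, and the median to 0.36 without CCL4 replicate 1. Cd163, the macrophage receptor for haptoglobin bound to haemoglobin, stood at 14.3 and 17.3 CPM in HACY and at 4.85 and 4.44 CPM in CCL4 (log2 1.76, SE 0.24, edgeR adjusted p = 0.00636). Fcgr1, an Fc receptor that binds Crp, was higher (log2 2.22, edgeR adjusted p = 0.00153), as was the iron exporter Slc40a1 (log2 0.86, edgeR adjusted p = 0.00625). Macrophages express these receptors, and the macrophage marker values stand above. Lrp1, the receptor for hemopexin bound to haem, was not called (log2 0.55, edgeR adjusted p = 0.108), and Slc22a17, proposed as a receptor for lipocalin 2, had at most 1.09 CPM; these 2 genes were singled out after their values were seen.

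The related lipocalins and pentraxins outside the 10 included 5 tested genes, of which 3 were higher and 0 lower: Apcs, Ambp, the precursor of alpha-1-microglobulin (log2 1.47, edgeR adjusted p = 0.00256), and Apom (log2 1.12, edgeR adjusted p = 0.0138), whose call was lost without HACY replicate 2 (0.0905). Rbp4, the retinol carrier, was not called (log2 0.19, edgeR adjusted p = 0.411). Scaled to hepatocyte genes, Apom stood at -0.28 and Ambp, itself a reference gene of that scaling, at 0.07.

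Genes next to the acute phase genes on the chromosome were read as a comparison of position. Beyond the serum amyloid cluster, Saal1 (log2 -0.63, edgeR adjusted p = 0.0801) and Hps5 (log2 -0.11, edgeR adjusted p = 0.726) were not called. Beside Hp, Txnl4b was lower (log2 -0.89, edgeR adjusted p = 0.0331), and beside Lcn2, 1110008P14Rik was lower (log2 -1.22, edgeR adjusted p = 0.0273). Apbb1, beside Hpx, was lower as well (log2 -1.46, edgeR adjusted p = 0.0393). All 3 lost their calls without HACY replicate 1 (0.156, 0.108 and 0.247). Col27a1, 9569 bases before Orm1, was higher (log2 1.09, edgeR adjusted p = 0.0123), but not without HACY replicate 2 (0.0767), and stood at -0.32 when scaled to hepatocyte genes. Dhodh, Trim3, Ptges2 and Akna were not called. Of the nearest genes of Hp, Hpx and Lcn2, 3 were called lower, beside 3.54% of all tested genes, and none higher, beside 8.19%. So few genes cannot show a difference from these shares.

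The genes whose profile over the 4 libraries was most like that of the acute phase genes were found by root mean square distance between centred log2 CPM, among tested genes that averaged 5 CPM or more. For the mean of the 8 hepatocyte genes (all but Saa3 and Lcn2), they were Wdr1 (distance 0.0116), Fah (0.0284) and Ecm1 (0.0329). For Saa3 they were Atp10a (0.0146), Peg10 (0.0336) and Slc24a5 (0.0338). For Lcn2 they were Lrg1 (0.0625), Aldh1l1 (0.0804) and Eppk1 (0.0822). With 4 libraries such likeness is a description only.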

How the data were processed

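Paired-end stranded mRNA libraries were made from sorted CD24+ cells of 2 HACY and 2 CCL4 samples, per the labels' protocols; groups and replicate numbers were read from the sample titles. The deposited tables give, per the file headers, a raw count and an FPKM (scaled to transcript length and library depth) for every gene symbol and library. The submitters' processing notes name HISAT2, HTSeq, Cufflinks, Trimmomatic and DESeq with the mm10 build. The gene annotation and the use of strand in counting were not given in the sources used here, nor were versions and roles of the tools, so antisense or overlapping genes and near-identical copies are uncertain.

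Counts were tested in edgeR 4.0.16 (R 4.3.3): filterByExpr with a minimum count of 10 and a minimum total of 15, TMM scaling, and the robust quasi-likelihood test with treatment as the only term, two-sided, Benjamini-Hochberg adjusted over 13428 genes at 0.05. The biological coefficient of variation was 16.5%. SEs are the log2 fold change over the square root of F. The test was run on simulated counts in which all genes shared the same coefficient of variation. That run does not cover genes or libraries that vary more than others. Replicates differed beyond counting noise (chi-square per degree of freedom 19.8 for HACY and 35.6 for CCL4). A count of 0 allows up to 3 counts, counting error only. Shares and ratios to Alb were compared by exact permutation (SciPy 1.17.1). Alternatives were other scalings (RLE, upper quartile, library size, hepatocyte reference genes), DESeq2 1.42.0, limma-voom and limma on log2(FPKM + 1) (limma 3.58.1), other filters, a replicate block and each library left out. Locations are from GENCODE on GRCm38; transcripts were aligned with Biopython 1.88.

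The 10 genes and all lists were chosen with earlier results of these data known. The text names the 10 genes, Alb, up to 4 genes per other list with the smallest edgeR p, the 3 genes most alike in profile to the hepatocyte genes, Saa3 and Lcn2 (predicted genes passed over), and the next genes on the chromosome; any other gene is marked in the text as picked with its values known. A gene that this rule would name is not reported here.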

Additional observations from a re-analysis of the deposited data

How the results depend on the processing

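Each gene's log2 fold change was recomputed under 14 alternatives, 140 values for the 10 genes: 108 kept their direction and their side of the threshold, 19 lost a call, 6 gained one and 7 reversed. All 7 reversals came from scaling to hepatocyte genes (Saa1 -0.84, Saa2 -0.77, Saa3 -0.33, Orm1 -0.11, Orm2 -0.39, Hpx -1.01, Lcn2 -0.34), where by construction the reference genes are set level; 0 of the 10 genes were then higher and 4 lower, with 180 genes higher and 11683 lower in all. Genes lower numbered 1355 by library size alone and 733 by DESeq2, and genes higher 670 by limma on log2(FPKM + 1); the cause was not tested. Leaving out 1 library gave 4 to 9 of the 10 genes higher and 0 to 1 lower, 530 to 1840 genes higher and 99 to 1207 lower, and a median ratio to Alb from -1.49 to -0.71. Against the hepatocyte list in place of Alb that median was -0.37. The summed share differed by 0.384 percentage points on FPKM, and the Saa3 share by 3.59 on counts and 3.54 per kilobase. With the replicate number as a block, 6 of the 10 genes were higher and 0 lower, with 893 genes higher and 331 lower; deviations of same-numbered libraries correlated at r = -0.099 across genes and no label pairs them, so the numbers were not taken as pairs. Without either HACY library, or without CCL4 replicate 2, the counts of all genes called moved by over 1.5 times. With 2 libraries a group, exact tests cannot reach 0.05.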

Other observations

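Among the marker lists of other cells that a CD24 sort could hold, 1 of 8 B cell markers was higher in HACY (Cd22, log2 1.41, edgeR adjusted p = 0.0152, but 0.0892 without HACY replicate 1), with summed levels of 58.9 and 45.7 CPM in HACY and 35.4 and 38.5 CPM in CCL4. Of 11 biliary and progenitor markers 2 were higher (Anxa4, log2 0.61, and Cftr, log2 2.31) and 1 lower (Prom1, log2 -1.04), but none of the 3 was called without HACY replicate 1, and without CCL4 replicate 2 there were 6 higher. Of 10 endothelial markers 4 were higher, among them Lyve1 (log2 2.90, edgeR adjusted p = 0.00596), and 1 lower. The lower gene, Clec4g, had few counts, at 0.71 and 0.74 CPM in HACY and 1.92 and 3.40 CPM in CCL4. Clec4g was singled out after its values were seen. The higher calls were 1 without HACY replicate 1, 1 without CCL4 replicate 1, 9 without CCL4 replicate 2 and 1 with the replicate number as a block, and the Clec4g call was lost by DESeq2 and when either HACY library was left out. None of 10 stellate and fibroblast markers passed the edgeR test, 1 had an unadjusted p under 0.05, and DESeq2 called 1 of 12. That list had 6 higher calls and a median of 1.04 without CCL4 replicate 2, but 3 lower calls and a median of -0.13 without CCL4 replicate 1. Of 2 tested red cell markers 0 were called by edgeR and 1 had an unadjusted p under 0.05, DESeq2 called 0 of 10, and Hbb-bs had at most 4.09 CPM. Of 3 tested T and NK cell markers Gzmb alone was called (log2 3.0, edgeR adjusted p = 0.0371, but 0.198 without HACY replicate 2). Their part in the levels of the acute phase genes was not tested.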
